A study of Mus musculus with 8 samples.

Results

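Liver RNA of mice given SLIT2 and an overdose of acetaminophen (APAP) was set against liver RNA of mice given APAP alone. The comparison rests on 4 of the 8 libraries of the study, chosen by their treatment labels: SLIT2+APAP replicates 1 and 2 and APAP replicates 3 and 4. All mice were labelled WT. The APAP group received phosphate-buffered saline (PBS) and 400 mg/kg APAP. The SLIT2+APAP group received the same dose and also SLIT2 at 2 µg per mouse, injected into the peritoneum over 3 days. Both groups were killed 24 h after APAP. The other 4 libraries, 2 from control mice given PBS and 2 from mice given SLIT2 alone, served to estimate the spread and as reference levels. The title of the study names the question, whether SLIT2 suppresses the liver toxicity of APAP. Whether replicates are separate mice is not stated in the labels, so the p-values reflect only how these samples varied, and that variation may be technical. RNA came from whole liver, so fewer cells of a type and less RNA per cell cannot be told apart.

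SLIT2 is a secreted ligand of the ROBO receptors, known for guiding axons and for acting on endothelial cells and on migrating leukocytes. APAP in overdose is turned by cytochromes, chiefly CYP2E1 of the hepatocytes around the central vein, into a reactive quinone imine that uses up glutathione and binds mitochondrial proteins. Injured hepatocytes switch on kinase-driven early transcription factors, p53 targets, the unfolded protein response of the endoplasmic reticulum (ER) and antioxidant genes of the factor NRF2, while the liver also secretes more acute phase proteins.

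The 4 libraries held between 73.7 and 99.1 M counts (1 M is 1000000). The hepatocyte markers Alb, Ttr, Apoa1, Cps1 and Hnf4a together stood at 71620 to 91550 counts per 1 M counts (CPM) in APAP and 59520 to 59740 CPM in SLIT2+APAP, and 0 of the 5 passed the test. The sum, mostly Alb, was 43790 to 63440 CPM in control and 6869 to 12520 CPM in SLIT2 alone. Each of the 5 was lower in both SLIT2+APAP libraries than in both APAP libraries, where 58.2% of all genes tested had groups that did not overlap in either direction. The 13 mitochondrially encoded genes took 14.9% and 13.4% of the counts in APAP and 25.1% and 30.3% in SLIT2+APAP, beside 16% and 17.3% in control and 60.2% and 69% in SLIT2 alone. The APAP libraries were far apart from each other. The median absolute log2 difference over genes was 0.6006 between APAP 3 and APAP 4 and 0.2191 between the SLIT2+APAP libraries. By this measure APAP 4 stood nearer to both SLIT2+APAP libraries (0.5554 and 0.5865) than to APAP 3. APAP 3 stood furthest from both SLIT2+APAP libraries (0.7479 and 0.778). Below, each pair of values is in the order APAP 3 and APAP 4, or SLIT2+APAP 1 and SLIT2+APAP 2, in CPM on library sizes scaled by edgeR's trimmed mean of M-values (TMM).

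Of 16876 genes tested, 1060 rose and 1288 fell in SLIT2+APAP at an edgeR quasi-likelihood adjusted p under 0.05, which is 13.9% of all genes (6.28% higher and 7.63% lower). The median log2 fold change over all genes was -0.06. The libraries of the 2 groups did not overlap in 9817 genes (58.2%). Most called genes differed by 2 to 4-fold, 525 among the rises and 713 among the falls. Falls over 16-fold numbered 69 and rises of that size 33. The APAP libraries were over 2-fold apart from each other in 257 of the genes that fell and in 131 of those that rose. Against control, the SLIT2+APAP libraries differed in 361 genes (2.14%), 117 of them higher and 244 lower. That comparison shares the SLIT2+APAP libraries with this one. The calls drew on all 8 libraries for their estimate of the spread. With only the 4 libraries compared in the fit, edgeR called 1 gene, with 3916 at an unadjusted p under 0.05, and 0 of the 314 called genes followed for this text stayed called. With library totals in place of TMM, 1133 genes rose and 728 fell. Left-out libraries moved the total too. It was 972 without control 1, 977 without control 2, 1517 without SLIT2 2, 6134 without APAP 4, 167 without SLIT2+APAP 1 and 21 without SLIT2+APAP 2. Of the 314 called genes followed, 0 changed direction in any alternative in which they were tested. They were picked as calls of the main fit, and the ranked ones also for groups that do not overlap. The unchanged direction was therefore largely set by the selection and is no measure of stability.

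**Figure D1:**
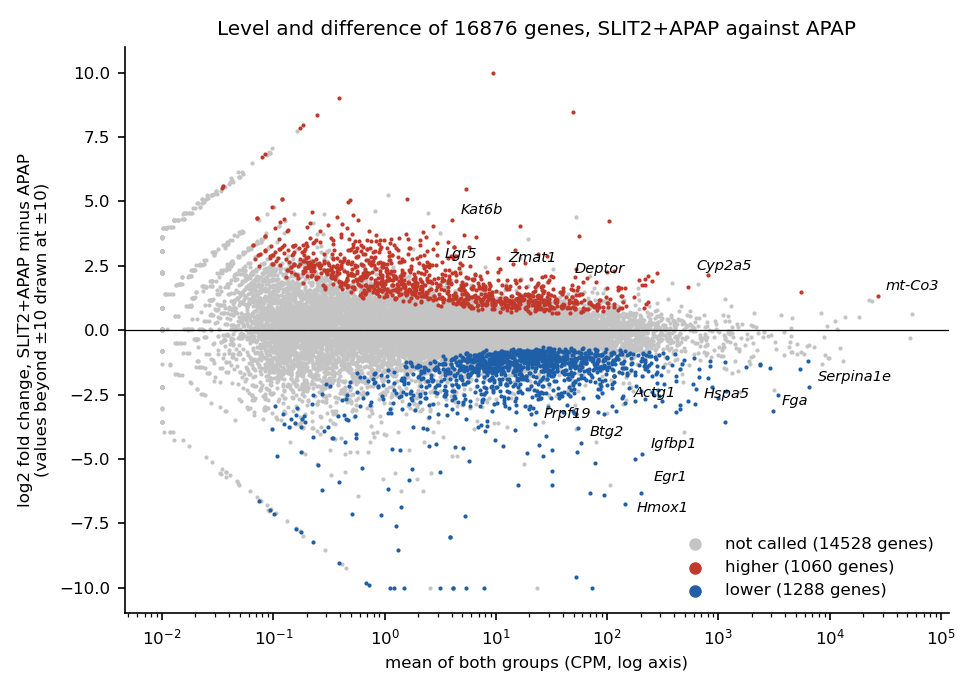
Each point is a gene, with the mean CPM of both groups on a log axis and the log2 fold change of SLIT2+APAP minus APAP on the vertical axis, where values beyond 10 are drawn at the edge. Red points (1060) rose, blue points (1288) fell and grey points were not called, and the labelled stress genes Hmox1, Egr1, Igfbp1 and Btg2 lie well below 0 while Kat6b, Zmat1 and Lgr5 lie above 0.

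Transcription factors of the immediate early response had the largest share of lower members among the 51 lists, 50%. These genes are switched on within minutes by kinase signalling and need no new protein. Of 26 tested members of the list, all had a negative fold change, 13 fell and 0 rose, with a median log2 fold change of -2.65 (-1.52 without APAP 3). Jun, a subunit of the AP-1 factor, stood at 524 and 172 CPM in APAP and 5.51 and 16.3 CPM in SLIT2+APAP (log2 fold change -4.99 ± 0.71, edgeR adjusted p = 0.008448). The control libraries held 7.31 and 8.43 CPM, so the SLIT2+APAP values lay on either side of control and both APAP libraries far above it. Fos, its partner, stood at 40 and 62 against 0.726 and 2.73 CPM (-4.87 ± 0.58, edgeR adjusted p = 0.005806). Zfp36, which binds AU-rich messages and speeds their decay, stood at 396 and 199.8 against 70.1 and 63.5 CPM (-2.16 ± 0.38, edgeR adjusted p = 0.01444). Junb, Jund, Ier2 and Egr1 fell as well, each with both APAP libraries above both SLIT2+APAP libraries. Several members were high chiefly in APAP 3. Atf3, a factor induced by many stresses, stood at 265 and 11 CPM in APAP and 0.501 and 2.88 CPM in SLIT2+APAP (-6.34 ± 1.45, edgeR adjusted p = 0.02928). Fosb stood at 15.2 and 0.418 against 0.0375 and 0.0205 CPM (-8.03 ± 1.61, edgeR adjusted p = 0.01392). Maff and Myc had the same shape, with 118 and 6.92 and 32.8 and 4.84 CPM in APAP. Without APAP 3 the log2 fold change of Atf3 was -2.70 and that of Fosb -3.82. The number of members lower was 12 without APAP 3, 23 without APAP 4, 4 without SLIT2+APAP 1 and 2 without SLIT2+APAP 2.

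MAP kinases and the phosphatases that restrain them gave fewer calls. Dusp genes encode phosphatases that switch MAP kinases off and are themselves induced by those kinases. Of 27 tested members, 8 fell and 0 rose, with a median of -0.96 (-0.32 without APAP 3). Mapk14, the p38 alpha kinase, stood at 69.4 and 42.9 CPM in APAP and 22 and 21.3 CPM in SLIT2+APAP (-1.37 ± 0.25, edgeR adjusted p = 0.01575). Dusp6, which acts on ERK, stood at 101 and 68.8 against 20.7 and 38 CPM (-1.53 ± 0.34, edgeR adjusted p = 0.02737). Neither pair overlapped. Dusp4, Dusp5, Dusp8, Dusp10, Dusp14 and Dusp16 fell too, with log2 fold changes from -3.78 (Dusp14) to -0.98 (Dusp16). The count lower was 2 without either control library, 3 without either SLIT2 library, 4 without APAP 3, 18 without APAP 4 and 0 without either SLIT2+APAP library.

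Among p53 and growth arrest targets, 6 of 21 fell and 0 rose, with a median of -1.26 (-0.27 without APAP 3). Btg2, which slows the cell cycle, was alike in both APAP libraries, at 116 and 105 CPM, and stood at 4.07 and 6.66 CPM in SLIT2+APAP and 4.87 and 3.95 CPM in control (-4.37 ± 0.32, edgeR adjusted p = 0.004038). Gdf15, a circulating stress cytokine, stood at 241 and 64.8 against 2.89 and 5.71 CPM (-5.15 ± 0.67, edgeR adjusted p = 0.006569). The SLIT2+APAP values of both genes bordered on those of control. The Gadd45 genes, whose products sense stress and stop the cell cycle, were uneven in APAP. Gadd45a stood at 194 and 11.3 CPM there, Gadd45b at 364 and 6.17 CPM and Gadd45g at 364 and 66.7 CPM, and all 6 values were above those of SLIT2+APAP. In SLIT2+APAP Gadd45a stood at 3.62 and 4.18 CPM and Gadd45b at 2.57 and 1.76 CPM. Without APAP 3 the log2 fold change of Gadd45b was -1.52 in place of -6.42. The kinase Plk3 also fell. The number lower in this list was 2 without either control or either SLIT2 library, 13 without APAP 4 and 1 without either SLIT2+APAP library.

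Promoter windows of 2 of these genes, from 250 bases before to 50 bases after the transcription start, are shown because they hold the element through which the early response is known to act. They come from RefSeq on GRCm38.p6 and are given in the direction of the gene. Btg2 (chr1:134079106-134079405, minus strand) holds the cyclic AMP response element TGACGTCA, in capitals. Srf (chr17:46556113-46556412, minus strand), the gene of serum response factor, holds 2 CArG boxes, the element that this factor itself binds, in capitals.
Btg2: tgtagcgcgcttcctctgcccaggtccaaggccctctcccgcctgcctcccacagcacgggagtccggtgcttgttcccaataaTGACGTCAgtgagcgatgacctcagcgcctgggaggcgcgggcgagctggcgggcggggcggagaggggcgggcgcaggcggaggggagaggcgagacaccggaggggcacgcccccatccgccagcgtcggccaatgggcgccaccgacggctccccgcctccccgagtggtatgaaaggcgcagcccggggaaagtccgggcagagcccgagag
Srf: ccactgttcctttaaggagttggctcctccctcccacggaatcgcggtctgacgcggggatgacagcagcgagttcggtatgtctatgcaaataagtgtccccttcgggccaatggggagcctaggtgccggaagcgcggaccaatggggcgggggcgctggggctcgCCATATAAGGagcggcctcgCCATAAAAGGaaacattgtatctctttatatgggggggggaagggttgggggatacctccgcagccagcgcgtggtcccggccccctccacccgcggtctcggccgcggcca
Srf stood at 11.9 and 14.7 CPM in APAP and 5.58 and 5.24 CPM in SLIT2+APAP (-1.30 ± 0.24, edgeR adjusted p = 0.01638). Searched on both strands, the cyclic AMP element lay in 4.17% of the windows of genes that fell, 3.16% of those that rose and 2.89% of those of all genes tested. For the CArG box the shares were 1.79%, 1.65% and 1.38%. Of the 21 windows at hand for immediate early factors, 1 held the cyclic AMP element and 2 held a CArG box, so most held neither. A window was at hand for 12148 of the genes tested (72%). These shares describe the sequences, and a match is not evidence of a bound site.

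ER genes made up the next block. Of 25 tested chaperones and disulfide isomerases, 6 fell and 0 rose, with a median of -0.81. Without APAP 4 the median was -0.25 and 2 members were higher, and against control the median of APAP 3 was -0.39. Hspa5 (BiP, the main ER chaperone) stood at 1159 and 1023 CPM in APAP and 137 and 162 CPM in SLIT2+APAP (-2.87 ± 0.27, edgeR adjusted p = 0.004763). Its SLIT2+APAP level lay below that of control (413 and 532 CPM, edgeR adjusted p = 0.03128) and above that of SLIT2 alone (59.5 and 48.2 CPM). Dnajb9, a cochaperone of BiP, stood at 57.8 and 61.6 against 12.4 and 12.7 CPM (-2.25 ± 0.39, edgeR adjusted p = 0.01339). Dnajb11, Creld2, Hyou1 and Txndc11 fell too, and for Hyou1, an exchange factor of BiP, APAP 4 was the higher library (55.1 and 248 CPM). Hsp90b1 and Calr, the most abundant of the other chaperones, were not called, at 541 and 910.4 against 431 and 586 CPM and 529.8 and 972 against 494 and 563 CPM. For Calr and Hsp90b1 the APAP libraries were also far apart, with APAP 4 the higher.

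The ER stress response element (ERSE), CCAAT followed by 9 bases of any kind and CCACG, is the site through which the factor ATF6 is known to act on chaperone genes. It lay in 7 of the 21 chaperone windows at hand, against 0.156% of the windows of all genes tested and 0.13% of all 27025 windows in the table. Among genes that fell it lay in 0.199% of the windows, near the share of all genes tested. Over all 16876 genes tested, 8839 had a negative fold change. Among the 25 tested chaperones, with or without the element, 23 had a negative fold change. The element lay in the windows of 19 tested genes, of which only the 10 on the lists are described. Whether it bears on the falls was not tested. Of the 10 listed genes with the element, 9 had a negative fold change (median -0.96), and Hspa5 and Creld2 fell. These windows are shown as the pair that holds the element and fell, for Hspa5 at chr2:34771840-34772139 and for Creld2 at chr15:88819396-88819695 (RefSeq, GRCm38.p6, plus strand). Capitals mark the element, which runs on the opposite strand in Creld2.
Hspa5: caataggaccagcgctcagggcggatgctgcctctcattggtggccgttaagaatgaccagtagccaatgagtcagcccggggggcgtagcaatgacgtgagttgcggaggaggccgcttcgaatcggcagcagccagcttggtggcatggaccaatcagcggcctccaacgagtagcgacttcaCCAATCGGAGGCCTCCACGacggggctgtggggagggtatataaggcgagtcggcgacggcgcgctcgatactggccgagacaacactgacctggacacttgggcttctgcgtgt
Creld2: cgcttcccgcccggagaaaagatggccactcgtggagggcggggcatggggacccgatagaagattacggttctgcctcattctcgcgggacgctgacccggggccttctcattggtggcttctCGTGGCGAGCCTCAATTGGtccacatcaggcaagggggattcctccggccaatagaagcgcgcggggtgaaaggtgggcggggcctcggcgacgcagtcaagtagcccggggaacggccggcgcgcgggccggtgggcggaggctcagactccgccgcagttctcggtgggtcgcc
Creld2 stood at 33.9 and 94.4 CPM in APAP and 8.17 and 13.7 CPM in SLIT2+APAP (-2.55 ± 0.59, edgeR adjusted p = 0.02948). Dnajc3, which holds the element as well, was not called (153 and 267 against 202 and 222 CPM).

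Lists of protein handling around the chaperones had falls and no rises with all libraries, though without APAP 4 there were 4 vesicle coat genes and 1 gene of the ATF4 list higher. Of 20 tested genes of ER-associated degradation, which sends misfolded proteins to the proteasome, 7 fell (median -0.70). Herpud1, a scaffold of the degradation complex, stood at 772 and 513 against 193 and 181 CPM (-1.78 ± 0.26, edgeR adjusted p = 0.009438), and its SLIT2+APAP values were close to the 200.3 and 198 CPM of control. The ATPase Vcp and its cofactors Nploc4 and Ufd1, the ubiquitin-conjugating enzyme Ube2g2, Selenos and the adaptor Sel1l fell too. Of 32 genes of the COPII and COPI vesicle coats and their cargo receptors, 7 fell (median -0.53), including the coat subunits Sec31a (10.6 and 22.9 against 2.39 and 2.25 CPM), Sec13 and Copb2. Of 30 genes of the translocon, signal peptidase and oligosaccharyltransferase, 2 fell (6.67%, beside 7.63% of all genes tested, median -0.52 and -0.15 without APAP 4), the signal recognition particle receptor Srpr and the transferase subunit Dad1. Of 25 unfolded protein sensors and targets of the factor ATF4, 9 fell (median -1.22, and -0.49 without APAP 3). The sensors Atf6 and Eif2ak3 (PERK) were among them, at 49.8 and 46.1 against 24.5 and 22.6 CPM and 15.9 and 11.9 against 5.71 and 6.23 CPM. Xbp1, the factor activated by the third sensor, fell as well. Asns, asparagine synthetase, stood at 8.89 and 5.22 CPM in APAP and 2.01 and 1.28 CPM in SLIT2+APAP, below the 22.6 and 13.3 CPM of control in both groups. The counts of the ER lists depended on single libraries. Without APAP 3 the count lower was 15 for chaperones, 14 for the translocon list, 11 for degradation, 13 for vesicle coats and 9 for the ATF4 list, and without APAP 4 it was 6, 2, 7, 8 and 15. Without control 2 it was 2, 1, 4, 3 and 2, without control 1 it was 4 for vesicle coats and the same for the others, and without SLIT2 2 it was 5, 1, 4, 6 and 5. Without SLIT2+APAP 2 it was 0 in each of the 5 lists, and without SLIT2+APAP 1 it was 1 for chaperones and 0 for the others.

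**Figure D2:**
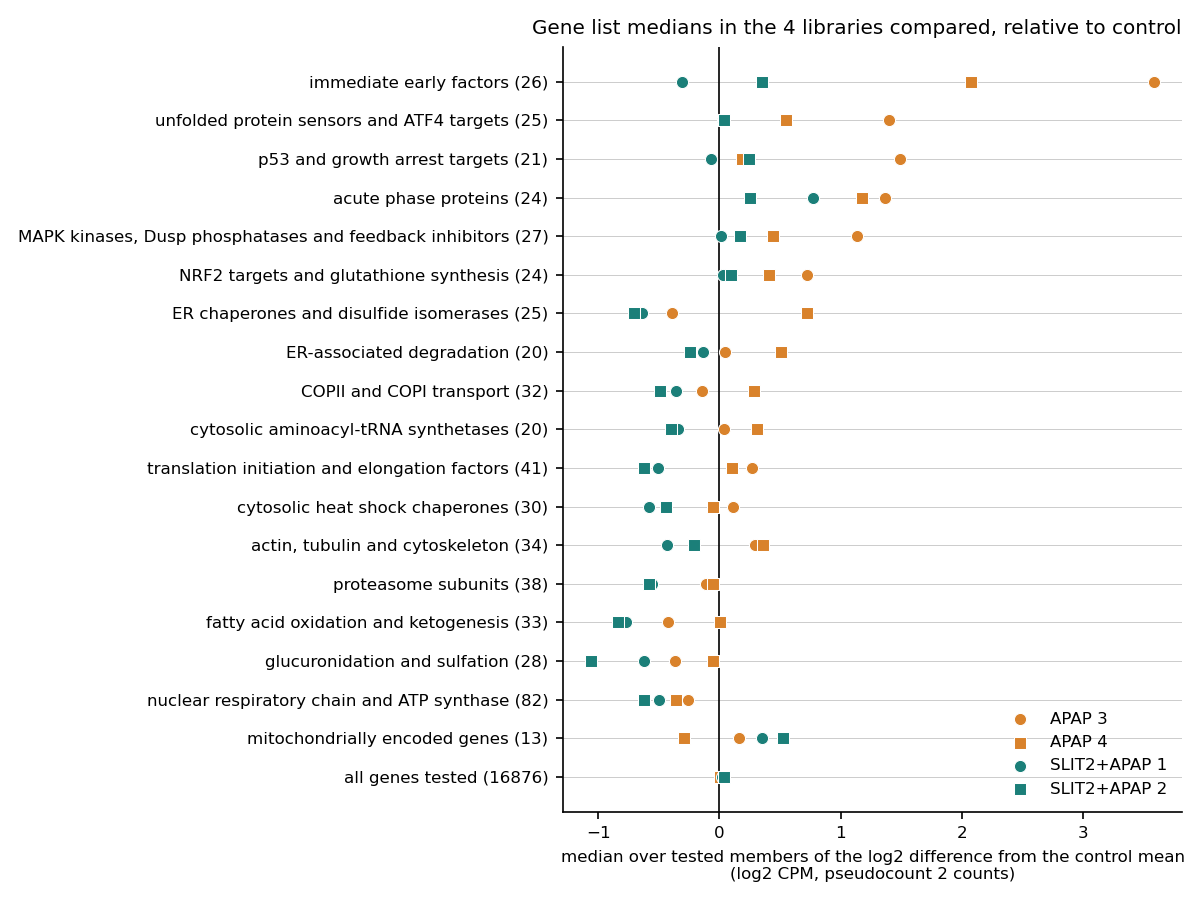
Each row is a gene list with its number of tested members in brackets, and each marker is the median over those members of the log2 difference of a library from the control mean (CPM, with a pseudocount of 2 counts). Immediate early factors stood at 3.58 in APAP 3 and 2.08 in APAP 4 and near 0 in both SLIT2+APAP libraries, whereas the ER chaperone, translation factor and proteasome lists stood below control in SLIT2+APAP.

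In the 3 lists that cover translation 17, 8 and 10 genes fell, and most members were not called. The shares called in either direction were 43.9% for factors, 40% for synthetases and 14.9% for ribosomal proteins, beside 13.9% of all genes tested. The ribosomal list was thus near the share of all genes. Over all genes tested 7.63% fell, and among genes over 64 CPM in the higher group 17.4% fell. Of 41 initiation and elongation factors, 17 fell and 1 rose, with a median of -0.68. Eef2, the elongation factor that moves the ribosome along, stood at 1149 and 961 CPM in APAP and 242 and 189 CPM in SLIT2+APAP (-2.29 ± 0.25, edgeR adjusted p = 0.004763). Eif5b, which joins the ribosomal subunits, was the member that rose, at 93.7 and 106 against 174 and 213 CPM (0.96 ± 0.21, edgeR adjusted p = 0.02662). Eif6, which keeps the large subunit from joining too early and is not on the list, stood at 91.7 and 67 against 13.3 and 13.9 CPM (edgeR adjusted p = 0.004038). Of 20 cytosolic aminoacyl-tRNA synthetases, 8 fell and 0 rose (median -0.70), for instance Kars at 41.9 and 38.6 against 15.1 and 12.6 CPM and Iars at 18.4 and 22.1 against 4.87 and 4.43 CPM. Of 74 cytosolic ribosomal proteins, 10 fell and Rpl21 rose (median -0.25, and 0.06 without APAP 3). Rpl4 stood at 464 and 434 against 119 and 96.6 CPM, with 315 and 266 CPM in control and 23.7 and 19.9 CPM in SLIT2 alone. Pseudogene copies of ribosomal protein genes are common, so reads could have been split among them and these values are uncertain. The synthetase count was 3 without either control library, 5 without either SLIT2 library and 12 without APAP 3. The factor count was 8 and 7 without control 1 and control 2. The ribosomal count was 6 without either control library and 20 without APAP 4, and 4 ribosomal genes were higher without APAP 3. Without SLIT2+APAP 1 the 3 counts were 0, 1 and 1, and without SLIT2+APAP 2 they were 0.

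Cytosolic chaperones, the proteasome and the cytoskeleton had falls and no rises with all libraries, though without APAP 4 there were 1, 1 and 3 genes higher. Of 30 heat shock and chaperonin genes, 10 fell and 0 rose (median -0.89, and -0.59 without APAP 3). Among them were 5 subunits of the CCT chaperonin, which folds actin and tubulin: Cct2, Cct3, Cct4, Cct5 and Cct6a. Cct6a stood at 39.2 and 50.1 CPM in APAP and 8.76 and 7.48 CPM in SLIT2+APAP (-2.46 ± 0.25, edgeR adjusted p = 0.004763), below the 29.7 and 30.3 CPM of control. The inducible chaperone Hspa1a stood at 11.5 and 8.39 against 0.225 and 1.56 CPM, and it has a near-identical copy, Hspa1b, so its reads are uncertain. Of 38 proteasome subunits, 11 fell and 0 rose (median -0.40). Psmd13, a subunit of the regulatory lid, stood at 43.7 and 60.8 against 6.2 and 6.92 CPM (-2.99 ± 0.32, edgeR adjusted p = 0.004763). Actin, tubulin and keratin genes fell in 15 of 34 tested members (0 rose, median -0.93). Actg1, the cytoplasmic gamma actin, stood at 199 and 309 against 32.3 and 39.6 CPM (-2.82 ± 0.29, edgeR adjusted p = 0.004763), and Tubb2a, a beta tubulin, at 235 and 66.6 against 17.3 and 15.7 CPM. Control held 95.6 and 74.3 CPM of Actg1 and 74.6 and 56.6 CPM of Tubb2a, so the APAP libraries were above control and the SLIT2+APAP libraries below it, apart from APAP 4 for Tubb2a, which was near control. The cytoskeletal count was 8 without either control library, 9 without SLIT2 2, 1 without SLIT2+APAP 1 and 0 without SLIT2+APAP 2. For the chaperone and proteasome lists it was 1 and 1 without SLIT2+APAP 1 and 0 and 0 without SLIT2+APAP 2, and the proteasome count was 7 without control 2.

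Proteins that hepatocytes secrete into plasma were lower in part. The share that fell was 26.9% for coagulation, 16.7% for acute phase, 16.7% for complement and 13.3% for carrier genes. Over all genes tested 7.63% fell, and among genes over 64 CPM in the higher group 17.4% fell, so only the coagulation list stood above that level. Of 26 fibrinogen and coagulation genes, 7 fell and 0 rose (median -0.54, and -0.35 and -0.31 without APAP 4 and SLIT2+APAP 2). The 3 fibrinogen chains carried large amounts of RNA. Fgb stood at 9509.9 and 6643 CPM in APAP and 3445 and 2228 CPM in SLIT2+APAP (-1.51 ± 0.35, edgeR adjusted p = 0.0293), Fgg at 7265 and 4520.2 against 1228 and 805 CPM, and Fga at 5894 and 5282 against 786 and 472 CPM (-3.15 ± 0.40, edgeR adjusted p = 0.006454). Fga and Fgg lay below control in SLIT2+APAP (1723 and 1241 and 3245 and 2062 CPM in the control libraries), without passing the test against control, whereas Fgb lay close to it (4200.4 and 3369.7 CPM). Prothrombin (F2) and the factors F7 and F12 fell as well. Serpina5 also fell but stayed under 1 CPM in every library. Of 24 acute phase genes, 4 fell (Lrg1, Itih3, Steap4 and Serpina3m) and 0 rose (median -0.48, and -0.98 and -0.23 without SLIT2+APAP 1 and 2). Lrg1 stood at 2345 and 1578 CPM in APAP, 447 and 320.1 CPM in SLIT2+APAP and 649 and 564 CPM in control. Saa1 and Saa2, the serum amyloids that mark the acute phase most strongly, stood at 2001 and 3425 against 1689 and 501 CPM and 1718 and 3509.7 against 1828 and 424 CPM and were not called. Of 24 complement genes, 4 fell (Masp1, C6, C8b and Fcna), and of 30 genes of albumin, carriers and apolipoproteins, 4 fell (Apom, Ahsg, Serpina1d and Serpina1e). Alb itself was not called, at 66459 and 51766 against 46996 and 47754 CPM. Serpina1e, an alpha-1 antitrypsin, stood at 9020.4 and 12653 against 2904 and 1757 CPM (-2.22 ± 0.36, edgeR adjusted p = 0.01184), with the limit that the Serpina1 copies are nearly identical. The coagulation count was 3 and 2 without control 1 and control 2. It was 2 without either control library for the acute phase and carrier lists and 1 for complement, which was 2 without either SLIT2 library. Without SLIT2+APAP 1 the counts of the coagulation, acute phase, complement and carrier lists were 1, 0, 0 and 1, and without SLIT2+APAP 2 they were 0.

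Antioxidant and drug-handling genes mostly fell where they were called, with exceptions. Of 24 NRF2 targets and glutathione synthesis genes, 6 fell and 0 rose (median -0.62, and -0.32 without APAP 3). Ephx1, microsomal epoxide hydrolase, stood at 335 and 441 CPM in APAP and 118 and 109.6 CPM in SLIT2+APAP (-1.77 ± 0.23, edgeR adjusted p = 0.006454). Hmox1, heme oxygenase, stood at 557 and 11 against 2.97 and 2.36 CPM (-6.74 ± 1.56, edgeR adjusted p = 0.02979). Its size rested on APAP 3: without that library the log2 fold change was -2.05 (edgeR adjusted p = 0.01395). Txnrd1 and Osgin1 were also higher in APAP 3 than in APAP 4, though less far apart, at 285 and 81.1 and 664 and 233 CPM. Gclc, the catalytic subunit of glutathione synthesis, was not called (293 and 149 against 209 and 203 CPM). Of 22 glutathione transferases, Gstp1 and Gstm4 fell and Mgst3 rose, from 17.4 and 17.7 CPM to 45.1 and 44.6 CPM, above the 16.3 and 19 CPM of control (1.35 ± 0.25 against APAP, edgeR adjusted p = 0.01583). Of 42 P450 genes and their reductase, 7 fell and Cyp2a5 rose (median -0.21, and -0.04 without APAP 3 or SLIT2+APAP 2). Cyp2e1, which activates APAP, stood at 4400.3 and 4138 against 1991 and 1093 CPM (-1.47 ± 0.37, edgeR adjusted p = 0.03932), and Por, the reductase that feeds electrons to P450s, at 587 and 256 against 127 and 136 CPM. Cyp2a5, a coumarin hydroxylase, stood at 255 and 247 against 724 and 900.3 CPM (1.70 ± 0.39, edgeR adjusted p = 0.02872). The near-identical Cyp2a4 stood at 0.973 and 5.11 against 9.1 and 62.1 CPM, so how reads were divided between them is uncertain. The NRF2 count was 3 without any 1 of the control and SLIT2 libraries, 11 without APAP 4, 1 without SLIT2+APAP 1 and 0 without SLIT2+APAP 2. The P450 count was 2 without either control library, 1 without SLIT2+APAP 1 and 0 without SLIT2+APAP 2, and the transferase count was 0 lower without either control library and 9 without APAP 4.

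Glucuronidation genes of the Ugt1a locus differed by isoform. This locus on chromosome 1 has alternative start exons spliced to shared exons, and how the counting divided reads of the shared exons is not given in the sources used here, so every Ugt1a value is uncertain. Ugt1a1, which conjugates bilirubin, stood at 302 and 368 CPM in APAP and 86.1 and 42.6 CPM in SLIT2+APAP. Ugt1a6a, the isoform that conjugates APAP, stood at 49.6 and 59.6 against 13.1 and 8.96 CPM (-2.31 ± 0.26, edgeR adjusted p = 0.005445). Ugt1a5, Ugt1a6b and Ugt1a9 fell as well. Ugt1a10 stood at 4.88 and 11.5 CPM in APAP and had 0 counts in both SLIT2+APAP libraries and both SLIT2 libraries, at least 509.8-fold lower when 3 counts over the group are taken as the floor. Ugt1a8 went the other way, at 19.7 and 1.38 against 204 and 192 CPM (4.23 ± 0.99, edgeR adjusted p = 0.03108), although it is not on the list. Outside the locus, the nucleotide sugar carrier Slc35d1 rose (88.6 and 95.1 against 163 and 174 CPM). The falls named above all lie in the Ugt1a locus, so they cannot be taken as separate results. In all, 6 of 28 genes of glucuronidation and sulfation fell and 1 rose (median -0.42, and -0.11 without APAP 4). The count lower was 3 without either control library, 3 without SLIT2+APAP 1, 4 without APAP 3 and 0 without SLIT2+APAP 2.

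Bile acid genes went both ways. Of 26 tested, 5 fell and 2 rose (median -0.30). Akr1d1, which reduces the steroid ring on the way to bile acids, stood at 45 and 79 CPM in APAP and 219 and 165 CPM in SLIT2+APAP (1.63 ± 0.37, edgeR adjusted p = 0.0279). Nr1h4, the bile acid receptor FXR, rose to 118 and 101 CPM from 41 and 67.4 CPM (1.01 ± 0.27, edgeR adjusted p = 0.04391). Among the falls were Cyp27a1, which starts the acidic pathway of synthesis (402 and 233 against 112 and 73.7 CPM), and the efflux pumps Abcc2 and Abcc3. Abcc3 exports conjugates to blood and stood at 25.1 and 46 CPM in APAP, 5.73 and 3.46 CPM in SLIT2+APAP and 14.4 and 10.7 CPM in control. Without either control library or SLIT2 2 the count lower was 3, without SLIT2+APAP 1 it was 1, and without SLIT2+APAP 2 it was 0. The count higher was 1 without either control library or APAP 3, 0 without either SLIT2 or either SLIT2+APAP library, and 7 without APAP 4, where the median of the list also changed sign.

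In energy metabolism the calls were mostly falls. The share that fell was 18.2% for fatty acid oxidation, 13.8% for the urea cycle list and 2.94% for cholesterol and fatty acid synthesis. Over all genes tested 7.63% fell, and among genes over 64 CPM in the higher group 17.4% fell. Of 33 genes of fatty acid oxidation and ketogenesis, 6 fell and 0 rose (median -0.73, and -0.32 without APAP 4), among them Acads, Acaa2, Acaa1a, Echs1 and Ehhadh. Acaa2, the mitochondrial thiolase, stood at 595 and 739.7 CPM in APAP and 248 and 225 CPM in SLIT2+APAP (-1.50 ± 0.24, edgeR adjusted p = 0.01162). Its control values, 574 and 558 CPM, were about those of APAP, and SLIT2 alone stood lowest at 74.6 and 59.6 CPM. Of 25 genes of glucose handling, 7 fell and 1 rose (median -0.65, and -0.30 without APAP 3). Fbp1, an enzyme of gluconeogenesis, stood at 441 and 524 against 119 and 73.1 CPM (-2.33 ± 0.29, edgeR adjusted p = 0.005993) and Ldha, lactate dehydrogenase, at 915 and 1160.2 against 309 and 273 CPM. The rise was Slc2a2, the glucose transporter GLUT2 (50.1 and 64.6 against 161 and 119 CPM, 1.29 ± 0.24, edgeR adjusted p = 0.01583). Of 29 genes of the urea cycle and amino acid breakdown, 4 fell (Gnmt, Gpt, Sdsl and Got1) and 0 rose. Gnmt, which uses up methyl groups on glycine, stood at 985 and 622 against 116 and 76.2 CPM (-3.06 ± 0.37, edgeR adjusted p = 0.005993). Got1 rested on APAP 3, at 839 and 108 CPM in APAP, and its log2 fold change without that library was -0.81 in place of -2.94. In cholesterol and fatty acid synthesis the median was -0.71 (-0.45 without APAP 4), with Tm7sf2, a sterol reductase, as the only fall among 34. The fatty acid count was 4 without either control library, 10 and 11 without APAP 3 and APAP 4, and the glucose count was 4 without either control library and 12 without APAP 4. The urea cycle count was 2 without either control library, 7 and 8 without APAP 3 and APAP 4, and the sterol count was 3 and 7 without these. Without SLIT2+APAP 2 each of the 4 counts was 0, and without SLIT2+APAP 1 they were 0, 1, 1 and 0 in the order given.

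Among mitochondrial genes, 2 of the 13 encoded in the mitochondrial genome rose, and of the nuclear genes of the chain and the mitochondrial ribosome 16 of 82 and 14 of 77 fell. The share called in either direction was 15.4% for the 13 genes and 19.5% for each nuclear list, beside 13.9% of all genes tested. Over all genes tested 7.63% fell, and among genes over 64 CPM in the higher group 17.4% fell. Most members of each list were not called, and the difference between the lists was not tested. Of the 13 protein genes of the mitochondrial genome, mt-Co3 and mt-Nd3 rose and 11 were not called (median 0.53). mt-Co3, a subunit of cytochrome oxidase, stood at 14685 and 16203 CPM in APAP and 36762 and 40249 CPM in SLIT2+APAP (1.32 ± 0.35, edgeR adjusted p = 0.04269). mt-Nd3, a subunit of complex I, stood at 2600.3 and 3233 against 7375 and 8999 CPM (1.49 ± 0.31, edgeR adjusted p = 0.02296). Both had their highest values in SLIT2 alone, 84037 and 109714 CPM for mt-Co3. Of 82 nuclear genes of the respiratory chain and ATP synthase, 16 fell and 0 rose (median -0.22, and -0.13 and -0.12 without APAP 3 and SLIT2+APAP 2), and 15 of the 82 were lower than control. Cox5a stood at 175 and 152 against 41.8 and 33.7 CPM (-2.12 ± 0.26, edgeR adjusted p = 0.006057), and Atp5b, the catalytic subunit of ATP synthase, at 655 and 679 against 194 and 146 CPM. Control held 666 and 562 CPM of Atp5b and SLIT2 alone 68.1 and 73.9 CPM, so the APAP libraries were near control and the SLIT2+APAP libraries between control and SLIT2 alone. Of 77 mitochondrial ribosomal proteins, 14 fell and Mrps21 rose (median -0.25). Mrps18b stood at 74.1 and 49.3 against 10.9 and 10.9 CPM (-2.50 ± 0.25, edgeR adjusted p = 0.004763). The share of counts from the mitochondrial genome was higher in the SLIT2+APAP libraries than in the APAP libraries, as given above, and its part in these values was not tested. The nuclear chain count was 8 and 7 without control 1 and control 2, and the ribosomal count was 5 without either of them and 23 without APAP 3, while 8 ribosomal genes were higher without APAP 4. Without SLIT2+APAP 1 both were 1 and without SLIT2+APAP 2 both were 0. No mitochondrially encoded gene was called without either control library, APAP 3 or either SLIT2+APAP library, 1 was without APAP 4, and 4 were without either SLIT2 library. With GC offsets 0 were called and the median was -0.01.

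**Figure D3:**
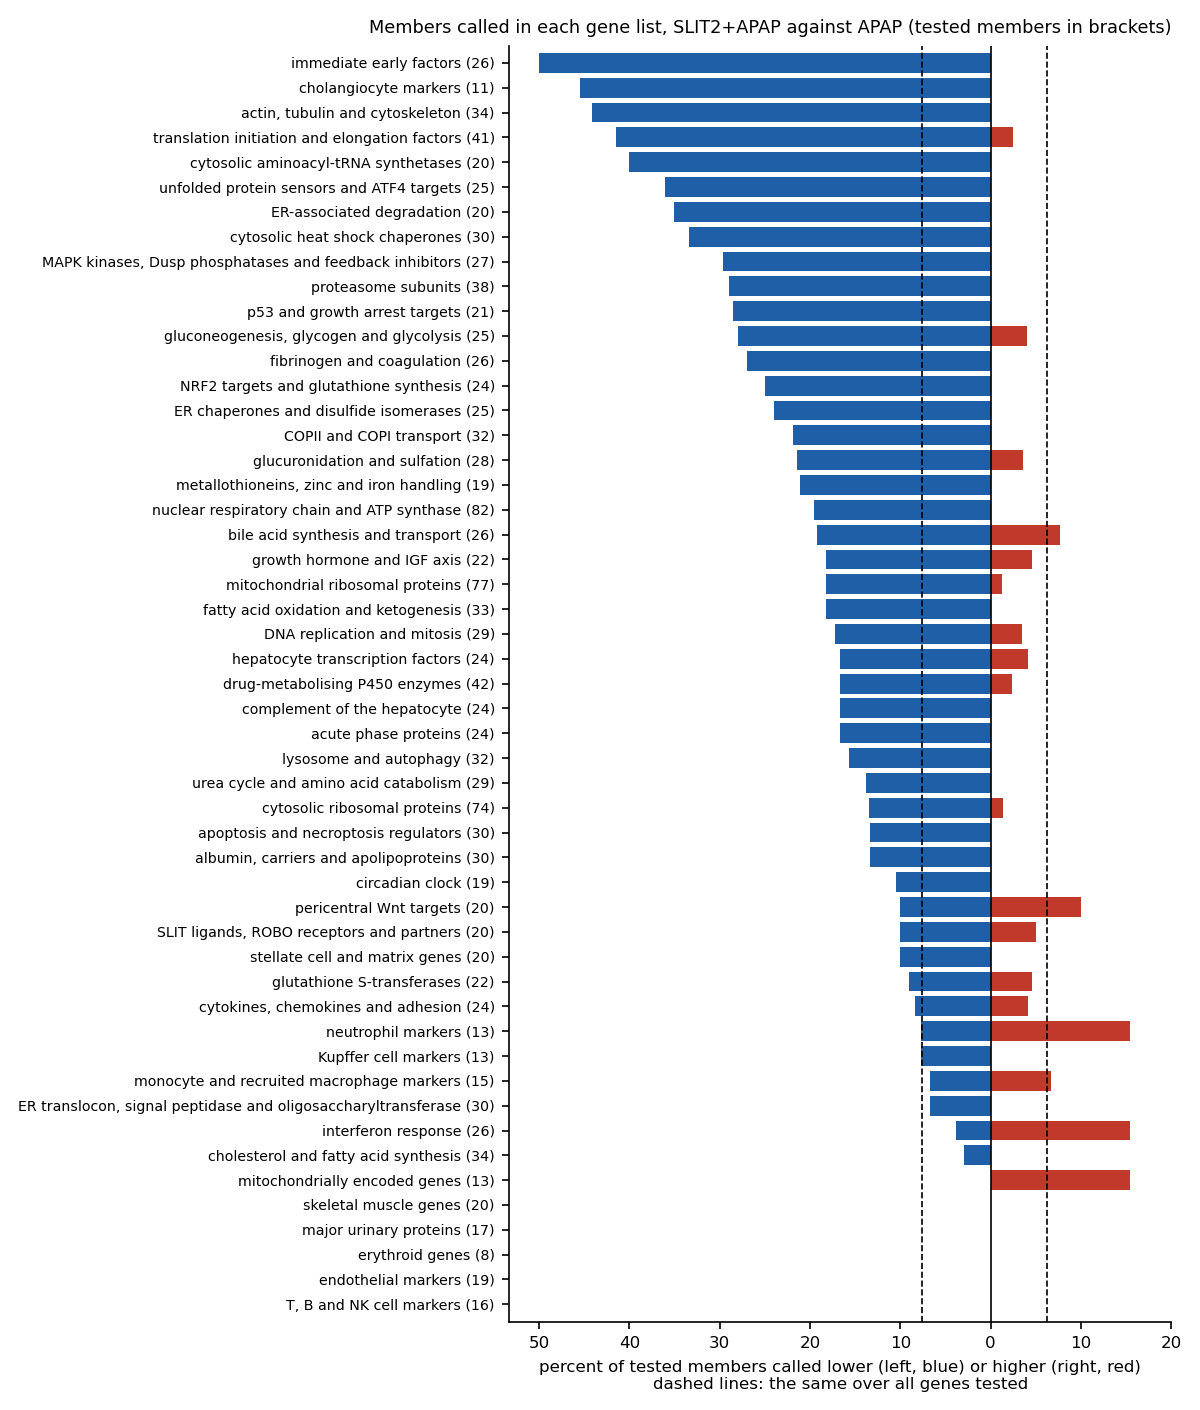
Bars give the percent of the tested members of each of 51 gene lists (members in brackets) that fell (blue, to the left) or rose (red, to the right), and dashed lines mark 7.63% and 6.28%, the same over all genes tested. Immediate early factors reach 50% lower, and neutrophil, interferon and mitochondrially encoded lists have the longest red bars at about 15.4%.

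Zonation and hormone genes were mixed. Pericentral Wnt targets are the genes of the hepatocytes that an overdose destroys. Of 20 tested, Lgr5 and Slc13a3 rose and Cyp2e1 and Tcf7 fell (median -0.08, with a positive median under several alternatives, among them library totals and without APAP 3). Lgr5, a receptor that amplifies Wnt signals, stood at 0.661 and 1.02 CPM in APAP, 5.97 and 3.96 CPM in SLIT2+APAP and 7.6 and 6.99 CPM in control (2.55 ± 0.35 against APAP, edgeR adjusted p = 0.00736). Glul, glutamine synthetase and the classic marker of these cells, was not called (564 and 33 against 317 and 83.6 CPM). Of 22 genes of growth hormone and IGF signalling, 4 fell and 1 rose (median -0.34, and 0.04 without APAP 3). Igfbp1, an IGF-binding protein of fasting and liver injury, stood at 541 and 260.1 against 9.25 and 19.2 CPM (-4.82 ± 0.55, edgeR adjusted p = 0.005445), with 46.7 and 24.5 CPM in control. Igfbp2, Socs3 and Stat3 fell, and the prolactin receptor Prlr rose to 155 and 143 CPM from 47.1 and 81.6 CPM. Of 24 hepatocyte transcription factors, Rxra, Cebpb and Cebpd were among those that fell and Nr1h4 rose, and Hnf4a was not called (473 and 371 against 364 and 279.8 CPM). Of 19 clock genes, Bhlhe40 and Nfil3 fell. Of 19 genes for metals, Slc39a14, Slc39a4, Slc30a1 and Tfr2 fell. Slc39a14, a zinc and iron importer of the acute phase, stood at 926 and 151 against 90.2 and 71.9 CPM, and without APAP 3 its log2 fold change was -0.90 in place of -2.73. Without APAP 4 the hepatocyte factors had 6 higher and 6 lower, and the counts lower were 7 for the growth hormone list, 7 for the clock and 12 for metals, and without APAP 3 the pericentral list had 6 higher and 4 lower. Without either control or either SLIT2 library the growth hormone list had 2 lower and the clock 1, metals had 2 or 1, and without either control library the pericentral list had 0 lower. Without SLIT2+APAP 2 none of these lists had a call, and without SLIT2+APAP 1 the growth hormone list had 1.

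Most lists of markers of cells other than hepatocytes gave few calls. The shares called were largest for cholangiocyte markers (45.5%) and neutrophil markers (23.1%), beside 13.9% of all genes tested. Among 13 neutrophil markers, S100a9 fell and Cxcr2 and Mpo rose (median -1.19, and -0.54 without APAP 3). S100a9, a calcium-binding protein of neutrophils, stood at 8.98 and 2.89 CPM in APAP and 0.876 and 1.26 CPM in SLIT2+APAP, while the receptor Cxcr2 stood at 2.37 and 1.69 against 4.58 and 4.84 CPM. Summed over the 5 defining markers, neutrophils stood at 8.20 to 20.4 CPM in APAP and 7.52 to 9.05 CPM in SLIT2+APAP, ranges that overlap, and Ngp had 0 counts in both SLIT2+APAP libraries. Among 15 monocyte and macrophage markers, Cd68, a lysosomal protein of phagocytes, fell (23.8 and 10.2 against 4.44 and 6.52 CPM) and Trem2, a lipid receptor of macrophages, rose (5.58 and 9.35 against 16.9 and 16.2 CPM). Among 13 Kupffer cell markers, C1qb fell (45.2 and 20.7 against 12.5 and 11.4 CPM), and the resident markers Clec4f and Cd5l were not called. Of 16 T, B and NK cell markers 0 passed, all of low level, and 0 of 8 erythroid genes passed. Among 20 stellate cell and matrix genes, Col4a1 and Tagln fell (29.4 and 13.2 against 4.92 and 5.73 CPM for Col4a1, a chain of basement membrane collagen). Among 11 cholangiocyte markers, 5 fell (median -1.59, and -0.62 without APAP 4). Of these Krt8 and Krt18 are keratins that hepatocytes also make, Sox9 and Epcam mark bile duct cells, and Cldn4 was under 0.3 CPM in every library compared. Sox9 stood at 44.2 and 9.18 against 4.32 and 5.67 CPM.

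Endothelial markers depended on the APAP library. Of 19 tested, 0 were called with all libraries (median -0.12). Lyve1, a marker of sinusoidal endothelium, stood at 38.4 and 3.31 CPM in APAP and 7.55 and 8.93 CPM in SLIT2+APAP, between the APAP libraries. Without APAP 3, 7 were higher in SLIT2+APAP, and without APAP 4, 8 were lower, so no direction is given. Summed over 5 defining markers, endothelial cells stood at 29.4 to 89.2 CPM in APAP and 41.8 to 47.5 CPM in SLIT2+APAP. The other cell lists depended on single libraries as well: without APAP 4 the count lower was 6 for neutrophil, 3 for Kupffer, 5 for monocyte, 6 for stellate, 2 for cholangiocyte and 4 for erythroid genes, and without APAP 3 it was 8 for cholangiocyte genes. Without either control library the count lower was 0 for neutrophil, Kupffer and monocyte genes and 1 for cholangiocyte genes. Without either SLIT2+APAP library no member of any cell list was called. Skeletal muscle genes, which stood at 81.9 to 752 CPM in control over 5 markers, were at or below 1.35 CPM in the 4 libraries compared.

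Immune and injury lists held single genes that moved. In the interferon response, Gbp3, Gbp7, Ifit1 and Ifi44 rose and Oasl1 fell, of 26 tested (median 0.12, and 0.28 without APAP 4). Gbp7, a guanylate-binding protein, stood at 7.52 and 10.3 CPM in APAP and 23 and 24.1 CPM in SLIT2+APAP (1.40 ± 0.25, edgeR adjusted p = 0.01392), with 13.2 and 16.4 CPM in control. Oasl1 was high in APAP 3 (116 and 8.18 against 2.05 and 2.86 CPM). Of 24 cytokines, chemokines and adhesion molecules, Il18 rose and Cxcl10 and Icam1 fell. Icam1, which binds leukocytes to endothelium, was even in APAP, at 17.3 and 16 against 7.48 and 8.73 CPM (-1.04 ± 0.23, edgeR adjusted p = 0.0277), whereas Cxcl10 stood at 90.1 and 3.39 against 1.63 and 2.61 CPM. Ccl2, the main monocyte chemokine, missed the threshold (7.97 and 1 against 0.1 and 0.501 CPM, edgeR adjusted p = 0.05819). Of 29 replication and mitosis genes, 5 fell and 1 rose. The helicase subunits Mcm3, Mcm4 and Mcm5, the clamp Pcna and the cyclin Ccne1 fell, Mcm5 from 1.85 and 4.17 to 0.338 and 0.614 CPM, and the mitotic gene Birc5 rose from 2.1 and 1.58 to 7.7 and 6.05 CPM, with 31.3 and 33 CPM in SLIT2 alone. Of 30 cell death genes, Tnfrsf1a (the TNF receptor), Bak1, which acts for death, and Bcl2l1, which acts against it, were among those that fell. Of 32 lysosome and autophagy genes, 5 fell, among them Ctsl, cathepsin L (1439 and 406 against 168 and 109 CPM), and Gaa, acid alpha-glucosidase (66.1 and 67.3 against 26.1 and 24.9 CPM). Without APAP 4 the counts lower were 4 for interferon, 9 for cytokine, 10 for death and 13 for lysosome genes. At the same time the interferon list had 8 higher without APAP 4, and replication had 9 lower without APAP 3. Without either control library the counts lower were 0 for cytokine and death genes and 2 for replication, and the interferon list had 2 higher. Without SLIT2+APAP 1 the lysosome list had 1 call and the others 0, and without SLIT2+APAP 2 none of the 5 lists had a call.

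The SLIT ligands, ROBO receptors and their partners gave few calls. Slit2 itself stood at 0.0873 and 0.0389 CPM in APAP and 0.163 and 0.113 CPM in SLIT2+APAP and was not called (edgeR adjusted p = 0.2584). Injected protein would not appear in RNA, so this level says nothing of the dose received. Robo1, a receptor, stood at 0.748 and 0.913 against 2.28 and 2.71 CPM (1.58 ± 0.30, edgeR adjusted p = 0.01681), with 2.49 and 2.54 CPM in control. The SLIT2+APAP libraries were thus near control and the APAP libraries below it. Robo4, the endothelial receptor, was split in APAP (16.8 and 2.66 against 3.67 and 4.15 CPM, edgeR adjusted p = 0.2236), and without APAP 3 its log2 fold change was 0.55 in place of -1.31. Robo2 was not called (edgeR adjusted p = 0.264). Of 20 tested genes of the list, Sdc1, a heparan sulfate proteoglycan, and the small GTPase Rac1 fell, at 195 and 148 against 85.3 and 73.2 CPM and 114 and 89.9 against 58 and 50.3 CPM. The count lower was 0 without either control library or either SLIT2+APAP library and 4 without either APAP library.

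**Figure D4:**
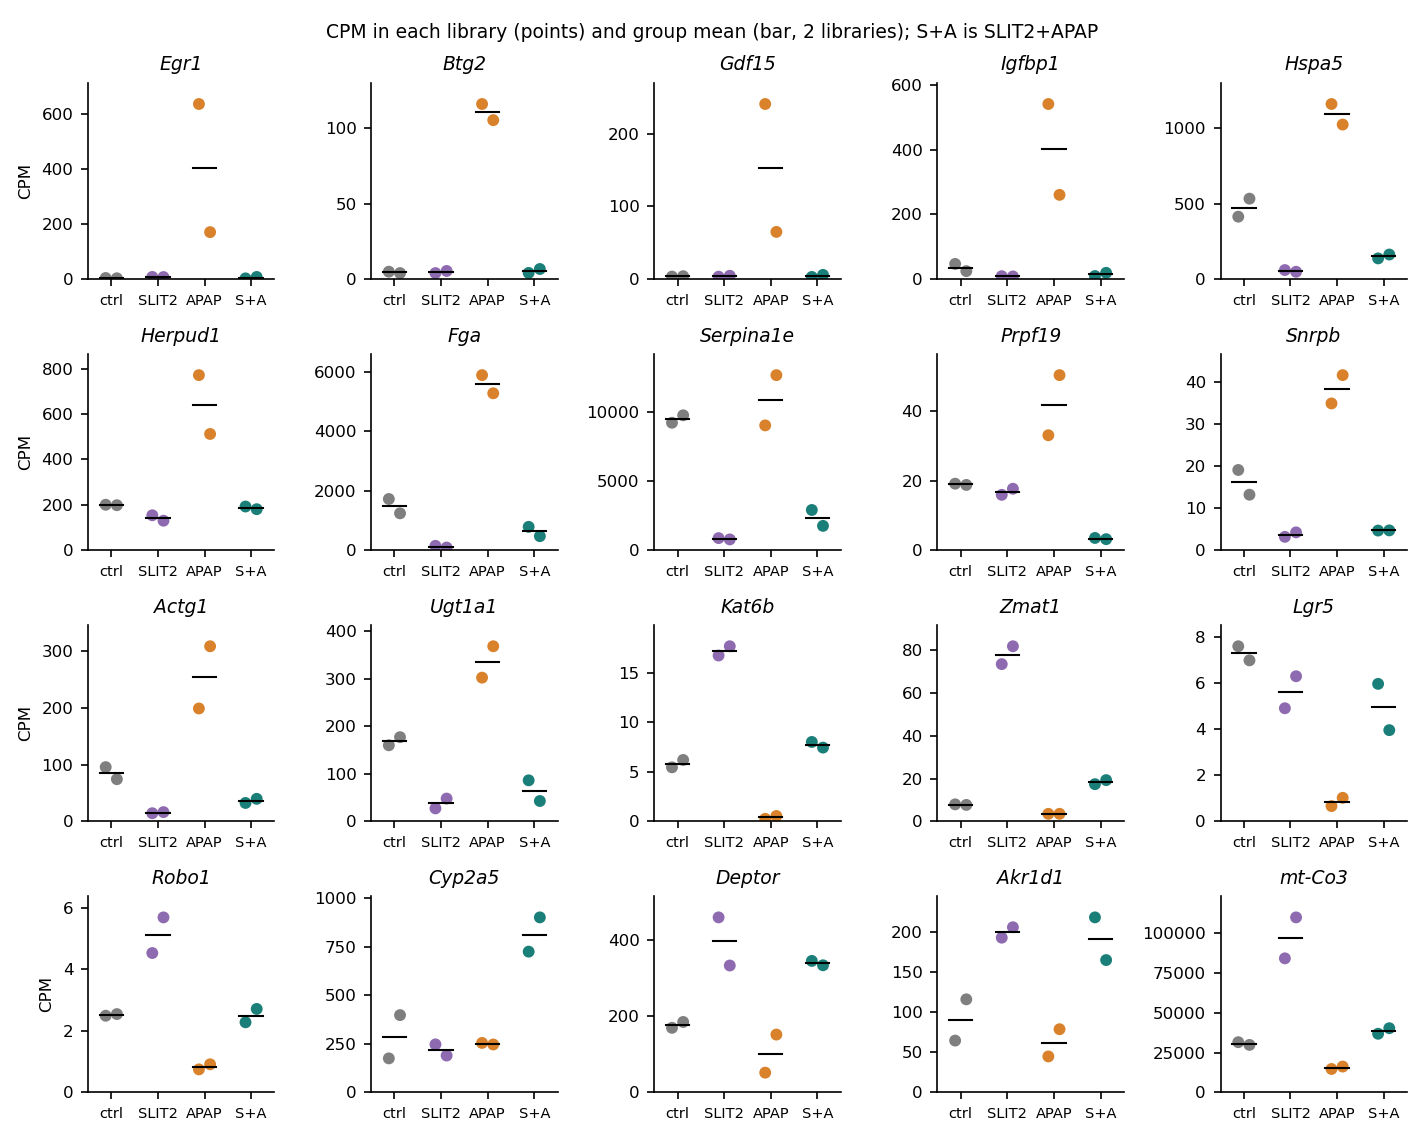
CPM of 20 genes in each of the 8 libraries (points) with the mean of each group of 2 as a bar, each panel on its own linear axis from 0. Egr1, Btg2, Gdf15 and Igfbp1 are high in APAP libraries alone, Hspa5, Snrpb and Actg1 are lower in SLIT2+APAP than in control, and Zmat1, Kat6b and mt-Co3 are highest in SLIT2 alone.

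Genes with small p-values included genes of RNA processing and nuclear transport. Prpf19 (PRP19, a ubiquitin ligase of the spliceosome) stood at 33 and 50.3 CPM in APAP and 3.5 and 3.16 CPM in SLIT2+APAP (-3.64 ± 0.27, edgeR adjusted p = 0.004038). The control libraries held 19.1 and 18.7 CPM and the SLIT2 libraries 15.9 and 17.6 CPM, so the SLIT2+APAP libraries stood below all others. Snrpb, a core protein of the spliceosome, stood at 34.9 and 41.7 against 4.67 and 4.71 CPM (-3.03 ± 0.27, edgeR adjusted p = 0.004289). Ran, the GTPase of nuclear transport, stood at 84.6 and 82.5 against 18.5 and 15.9 CPM (-2.28 ± 0.21, edgeR adjusted p = 0.004289), and Lrrc59, a membrane protein of the ER, at 84 and 85.2 against 16.1 and 15.4 CPM (-2.43 ± 0.20, edgeR adjusted p = 0.004038). Each of these genes differed by less than 2-fold between the APAP libraries. Unlike Prpf19, the others were lower in SLIT2 alone than in SLIT2+APAP. In SLIT2 alone Snrpb stood at 3.17 and 4.24 CPM, Ran at 7.53 and 8.64 CPM and Lrrc59 at 3.29 and 2.63 CPM. Control held 19.1 and 13.2 CPM of Snrpb, 61 and 52.1 CPM of Ran and 31.9 and 31.6 CPM of Lrrc59. On GRCm38 Prpf19 (ENSMUSG00000024735) lies on chromosome 19 from 10895231 to 10909559, Snrpb (ENSMUSG00000027404) on chromosome 2 from 130171414 to 130179403, and Ran (ENSMUSG00000029430) on chromosome 5 from 129020069 to 129024323.

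Rankings by size here leave out pseudogenes, genes without an informative symbol, genes whose groups overlap and genes whose higher group averages under 5 CPM, and rises larger than those below occur among the genes left out. Kat6b, a histone acetyltransferase, had the largest log2 rise of the eligible genes. It stood at 0.249 and 0.534 CPM in APAP, 8.01 and 7.44 CPM in SLIT2+APAP and 5.45 and 6.19 CPM in control (4.27 ± 0.36 against APAP, edgeR adjusted p = 0.004038), so the APAP libraries were the low ones. Kat6b (ENSMUSG00000021767) lies on chromosome 14 from 21481434 to 21672478. Tmod1, which caps actin filaments, stood at 1.2 and 0.797 against 10.2 and 14.4 CPM, and Amn1 at 6.39 and 4.65 against 40.9 and 44.3 CPM. Other rises stood above control as well. Lrrc71 stood at 0.723 and 0.777 CPM in APAP, 10.5 and 8.8 CPM in SLIT2+APAP and 2.44 and 3.59 CPM in control (3.68 ± 0.31, edgeR adjusted p = 0.004038). Zmat1, a zinc finger gene, stood at 3.49 and 3.5 against 17.4 and 19.3 CPM, with 7.93 and 7.66 CPM in control and 73.5 and 81.9 CPM in SLIT2 alone (2.39 ± 0.20 against APAP, edgeR adjusted p = 0.004038). Zfp457 and the homeobox gene Hoxd11 were ordered likewise, with 67.5 and 61.9 and 33 and 36.4 CPM in SLIT2 alone against 5.74 and 7.3 and 5.87 and 9.48 CPM in SLIT2+APAP. Sardhos, an antisense transcript, and Ccdc24 rose too, and without a stated strand setting reads of Sardhos cannot be told from those of the gene it overlaps. Glcci1, Ggta1 and Ugt1a8 were the other three of the 10 largest rises among the eligible genes.

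In absolute amount, the largest gains among the same eligible genes, besides mitochondrial ones, were those of Lars2, Cyp2a5, Rsrp1 and Rdx. Lars2, the mitochondrial leucyl-tRNA synthetase, stood at 274 and 331 CPM in APAP and 1087 and 1565 CPM in SLIT2+APAP (2.13 ± 0.48, edgeR adjusted p = 0.028). Control held 1081 and 925 CPM of Lars2 and SLIT2 alone 2604 and 7296 CPM, so the APAP libraries were the low ones. Against control, Lars2, Cyp2a5, Rsrp1, Rdx, Nfib, Zbtb20 and Deptor were not called. Rdx, radixin, which ties actin to the canalicular membrane of hepatocytes, stood at 83.2 and 126 against 399 and 396 CPM (1.93 ± 0.27, edgeR adjusted p = 0.007952), and Rsrp1 at 76.7 and 121 against 509 and 412 CPM. The transcription factors Nfib and Zbtb20 rose to 298 and 319 and 333 and 308 CPM from 39 and 122 and 65.1 and 126 CPM. Deptor, an inhibitor of the kinase mTOR, stood at 51.9 and 152 against 346 and 334 CPM (1.74 ± 0.45, edgeR adjusted p = 0.04191). For Deptor, Nfib and Zbtb20 APAP 3 was the lower APAP library. That neither APAP library reached a SLIT2+APAP library was set by the ranking, which leaves out genes whose groups overlap.

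The 10 largest falls among the eligible genes mixed stress genes with genes that had no counts in SLIT2+APAP. Clasp1, a microtubule-binding protein, stood at 6.41 and 6.1 CPM in APAP and had 0 counts in SLIT2+APAP, at least 369.2-fold lower with the same floor. Its control libraries held 0.0477 and 3.27 CPM, so they differed from each other too. Rsc1a1 stood at 24.7 and 6.46 CPM in APAP and had 0 counts in every other library (at least 855.1-fold lower in SLIT2+APAP). It is a gene without introns that lies inside Ddi2, so how reads were assigned there is uncertain. Necab2 and Cidec, and Slc25a47 from the largest losses in CPM, were high chiefly in APAP 3. Cidec, a lipid droplet protein, stood at 123 and 2.55 against 0.864 and 1.04 CPM, and Slc25a47, a mitochondrial carrier of the liver, at 3832 and 369 against 174 and 181 CPM. Without APAP 3 their log2 fold changes were -1.42 and -1.06 in place of -6.03 and -3.56, and that of Necab2 was -2.41 in place of -7.22.

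Called genes differed in base composition, level and type. By quintile of transcript GC content, from lowest to highest, 12.1%, 7.79%, 5.44%, 3.20% and 1.93% of genes rose and 2.30%, 4.92%, 7.61%, 11.4% and 12.4% fell. The median log2 fold change went from 0.34 in the lowest quintile to -0.38 in the highest. Among genes over 64 CPM in the higher group 17.4% fell and 5.08% rose, and among those under 1 CPM 1.01% fell and 5.28% rose. Of protein-coding genes 8.35% fell and 5.24% rose, of antisense genes 0.967% and 14.9%, and of processed pseudogenes 3.56% and 13.7%. Noncoding genes took 0.833% and 0.69% of the counts outside the mitochondrial genome in APAP, 1.03% and 1.22% in SLIT2+APAP and 2.65% and 3.34% in SLIT2 alone. With offsets that remove each library's trend with GC content, 786 genes rose and 1006 fell, and 677 of the 1060 rises and 831 of the 1288 falls were called again. The part of base composition and RNA type in the calls was not tested beyond this fit.

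**Figure D5:**
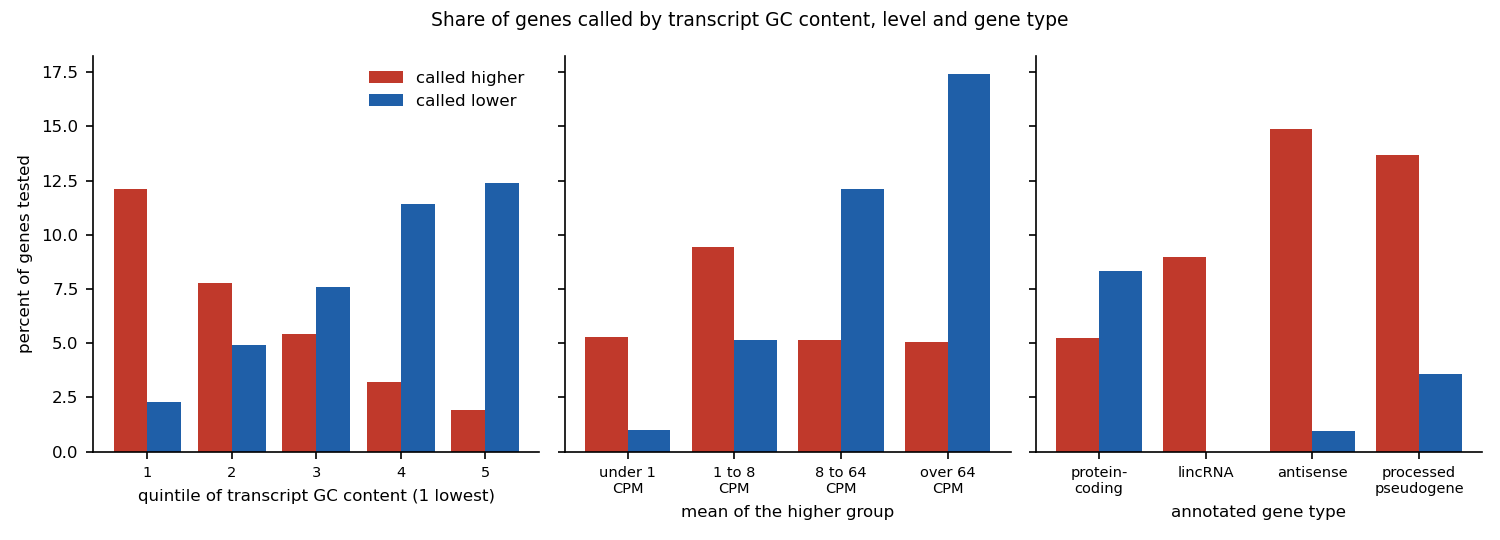
Bars give the percent of genes tested that rose (red) or fell (blue), by quintile of transcript GC content (left), mean CPM of the higher group (middle) and annotated gene type (right). Red bars shrink from 12.1% to 1.93% from the lowest to the highest GC quintile while blue bars grow from 2.30% to 12.4%.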

How the data were processed

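Liver RNA-seq counts of 8 libraries were used. The deposited table holds whole-number counts per Ensembl gene, not scaled by the authors, in 1 column per library, and 0 other sample columns. STAR 2.5.4, Cufflinks, Cuffdiff 2.2.1 and mm10 are named in the submitters' processing notes without roles, and the libraries were made with a directional kit, per the labels' protocols. For the counting step, annotation release, strand setting and multi-mapping reads, the details were not given in the sources used here. Rounding of the largest counts is likely, since 72 of 93 values from 1000000 upwards end in 0. Symbols, types and coordinates came from GENCODE M21 on GRCm38 (22329 of 23006 identifiers, 97.1%), and promoter windows from RefSeq on GRCm38.p6.

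In R 4.3.3, edgeR 4.0.16 kept 16876 genes by filterByExpr, scaled libraries by TMM and fitted a robust quasi-likelihood model (legacy = FALSE) with 1 mean per group to all 8 libraries (4 residual degrees of freedom). Fold changes are SLIT2+APAP minus APAP on the log2 scale with their SE, and p-values were adjusted by Benjamini-Hochberg over all genes. Single values were not tested alone, because the smallest two-sided p of an exact permutation of 2 against 2 libraries is 0.333. Floors and bounds cover counting error only.

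The comparison and the 51 gene lists were chosen with earlier results of these data known. Lists are described by counts and medians beside those over all genes, with no test of a list. Genes were named by rule: from calls whose higher group averaged at least 5 CPM, with groups that did not overlap and an informative symbol, the 10 largest rises and falls, the 10 smallest p-values and the 10 largest CPM differences in each direction, per list the 4 members of smallest p, list members that make up a count, and Slit2, Robo1, Robo2 and Robo4. The uncalled reference genes Saa1, Saa2, Alb, Gclc, Glul, Hnf4a, Calr, Hsp90b1, Dnajc3, Lyve1 and Cyp2a4 were added after their values were seen. Some genes that the rule names are not reported here. Alternatives were other scalings and filters, DESeq2 1.42.0, the older edgeR fit, subsets of libraries and genes, GC offsets, a fold threshold of 2 and each library left out in turn. A library left alone in its group was taken to vary as the other groups do. The procedure was tested on simulated data. Figures were drawn with matplotlib 3.10.9.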

Additional observations from a re-analysis of the deposited data

How the results depend on the processing

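Of 357 followed genes, none of the 314 called ones changed direction in any alternative in which it was tested, and 4 uncalled ones (Hbb-bt, Hba-a2, Atp2a1 and Robo4) did without APAP 3. For the called genes this was largely set by how they were picked, as given above. The number of genes called, higher and lower was 2323, 1098 and 1225 with DESeq2 size factors, 1861, 1133 and 728 with library totals only, 2021, 943 and 1078 without a count filter, 1770, 781 and 989 at 10 CPM in at least 2 libraries, and 2173, 986 and 1187 with the older edgeR fit. With library totals 60.9% of the calls were higher, against 45.1%, and the median of all genes was 0.12 in place of -0.06. The same counts were 1667, 823 and 844 without the SLIT2 libraries, 1792, 786 and 1006 with GC offsets, and 3532, 1572 and 1960 with DESeq2. On the 4 libraries alone, edgeR called 1 gene, 1 higher and 0 lower, with 3916 at an unadjusted p under 0.05. Leaving out 1 library at a time gave 21 to 6134 calls, 12 to 2749 higher and 9 to 3385 lower, the lowest without SLIT2+APAP 2 and the highest without APAP 4. Of 51 list medians, 15 changed sign under at least 1 alternative, in 26 of 1018 values. No paired analysis was possible because the APAP libraries are numbered 3 and 4 and the SLIT2+APAP libraries 1 and 2, so the groups share no number.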

Other observations

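Gene families picked by symbol after their values were seen gave the following counts, which support nothing by themselves. Of 347 tested zinc finger genes named Zfp, which mostly encode DNA-binding repressors, 34 rose and 7 fell, with a median log2 fold change of 0.25. Of 19 Hox genes, the body-plan factors, 5 rose and 0 fell (median 1.40). Of 44 spliceosome genes (Snrp, Sf3, Prpf and Lsm), 0 rose and 9 fell (median -0.28), whereas 0 of 10 splicing factors named Srsf were called. Of 48 genes of nuclear transport (Ran, Kpn, Ipo, Xpo and Nup), 0 rose and 13 fell (median -0.47), and of 44 mitochondrial carriers (Slc25a), 1 rose and 8 fell (median -0.33). Over all genes 6.28% rose and 7.63% fell.

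Atp6v0c, a proton channel subunit of the lysosomal pump, and its processed pseudogene Atp6v0c-ps2 went opposite ways. Atp6v0c stood at 291 and 186 CPM in APAP and 54 and 27.3 CPM in SLIT2+APAP (log2 fold change -2.55 ± 0.36, edgeR adjusted p = 0.008593). Atp6v0c-ps2 stood at 0.274 and 0.282 against 84 and 115 CPM (8.47 ± 0.39, edgeR adjusted p = 0.0004081), with 37.6 and 23.8 CPM in SLIT2 alone. How reads that fit both were assigned is not given in the sources used here. By chromosome, 82 of 614 genes of chromosome X rose (13.4%) and 25 fell (4.07%).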
